A study of Chlorocebus sabaeus with 6 samples.

Results

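A set of 9 genes of the bone morphogenetic protein (BMP) and TGF-beta pathway, namely BMP2, BMP4, BMP7, INHBA, SMAD6, SMAD7, ID1, ID2 and ID3, was followed in lentivirus-treated and control COS-1 cells. They are 9 of the 51520 features in the deposited expression table. Each feature carries an accession and no symbol, so the genes were taken by their human Ensembl protein accession, and all 9 accessions were present, each on 1 row. BMP2 was chosen by its FPKM values, which were already known to be far higher in the lentivirus-treated libraries, and the other genes were listed beside it as parts of its pathway with earlier results of the same comparison known. The values below that compare the groups are therefore a description, and their p-values are no independent evidence.

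COS-1 is a fibroblast-like line from African green monkey (Chlorocebus sabaeus) kidney, transformed with sequences of a simian virus, and it is a single established line. There were 3 libraries from lentivirus-treated cells and 3 from control cells that the labels call untreated. Cells of both groups had been kept without serum for 14 h and then exposed for 90 min to 2 ng/ml of EGF (epidermal growth factor), which the control cells therefore received too. The series title names SHOC2, which scaffolds RAS and RAF upstream of ERK1/2. What the virus carried is not in the labels, which list no control virus either, so infection and cargo cannot be told apart. SHOC2 itself was not analysed here. Whether replicates came from separate cultures is not stated, so the p-values reflect the spread between libraries, possibly only a technical one.

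BMPs, TGF-betas and activins are secreted dimers that bind pairs of serine/threonine kinase receptors. The receptors phosphorylate SMAD proteins, which enter the nucleus and switch target genes on or off. In many cell types the ID genes are induced by BMP signalling, and so are SMAD6 and SMAD7, whose products then dampen the receptors and close a negative feedback loop. ERK can also phosphorylate SMAD proteins, a known link between EGF signalling and this pathway. EGF and serum also act on the ID genes by other routes.

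Levels are given in FPKM (fragments per kilobase of feature, scaled to the size of the library), a scale per length. Levels of different genes are set side by side on it below. How fully each feature covers its transcript is unknown, so shares, ratios and orders between genes are approximate. The 6 libraries summed to between 2094230 and 2206925 FPKM. The number of reads behind them is unknown, so no counting interval is given. Of the 9 genes, 8 averaged at least 1 FPKM over the libraries and entered a limma test over all 28434 features that passed the same filter, on log2(FPKM + 1), with Benjamini-Hochberg adjustment over all of them and a call at an adjusted p under 0.05. A change on that scale understates the change of low genes. INHBA, the remaining gene, stayed under the filter and was not tested. The RefSeq gene table of the species (assembly mChlSab1.0.hap1) places a gene of the same symbol on the same chromosome for 9 of 9 genes, and in 9 of 9 its span there is longer than the span of the deposited feature. Positions are quoted from the deposited table; its genome build is not stated in the sources used.

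Among the ligands, BMP2 was several times higher in lentivirus-treated cells, BMP7 was somewhat lower, and BMP4 and INHBA overlapped between the groups. BMP2 (ENSP00000368104_1), a secreted inducer of bone and cartilage and of many embryonic tissues, lay on chromosome 2 from 31350277 to 31359222 and overlapped no other feature. It stood at 23.6, 23.1 and 21.5 FPKM in the lentivirus-treated libraries, against 5.16, 6.60 and 6.13 FPKM in the control libraries. The lowest lentivirus-treated library was far above the highest control library. The means were 22.7 ± 1.11 FPKM in lentivirus-treated cells and 5.96 ± 0.735 FPKM in control cells (SD, n = 3 each), a ratio of 3.81. On log2(FPKM + 1) the difference was 1.77 with an SE of 0.095, and only 1.18% of tested features had a larger absolute difference. BMP2 ranked 178 from the top among all 28434 tested features and 10 among the 9949 that overlap no other. These values chose the gene and carry no test.

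BMP7 (ENSP00000379204_1), a ligand known for its part in kidney development and in keeping nephron progenitors, lay on the same chromosome from 6856926 to 6952731. It stood at 22.7, 22.3 and 21.5 FPKM in lentivirus-treated libraries, against 28.2, 25.6 and 28.8 FPKM in control libraries. All 3 lentivirus-treated libraries were below all 3 control libraries. The means were 22.2 ± 0.645 FPKM in lentivirus-treated cells and 27.5 ± 1.73 FPKM in control cells (SD, n = 3 each), and the log2 difference of -0.30 (SE 0.061) just missed the call, with a limma adjusted p of 0.0521. It crossed to the other side of the threshold in 5 of 15 other ways of processing, with a limma adjusted p between 0.020 and 0.157 over all 15.

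BMP4 (ENSP00000245451_1), the ligand most closely related to BMP2 and a mesoderm inducer, lay on chromosome 24 from 31097832 to 31100019. Its levels were 7.33, 8.62 and 7.64 FPKM in lentivirus-treated libraries, against 8.59, 8.66 and 9.04 FPKM in control libraries. Lentivirus replicate 2 fell within the control range, so the groups overlapped. The log2 difference was -0.14 (SE 0.075) with a 95% interval of -0.33 to 0.05, and BMP4 was not called (limma adjusted p = 0.32).

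INHBA (ENSP00000242208_1) encodes the beta A subunit that pairs with itself to make activin A, a ligand of the activin branch that signals through SMAD2 and SMAD3. It lay on chromosome 21 from 16936174 to 16946877 and was barely detected. It stood at 0.497, 0.962 and 0.748 FPKM in lentivirus-treated libraries, against 0.688, 0.927 and 0.850 FPKM in control libraries. Lentivirus-treated libraries held both the lowest and the highest of the 6 values. With no filter its limma adjusted p was 0.994.

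The make-up of the BMP transcripts differed accordingly. BMP2 made up 44.0%, 42.8% and 42.5% of the summed FPKM of BMP2, BMP4 and BMP7 in lentivirus-treated libraries, against 12.3%, 16.2% and 13.9% in control libraries. BMP7 made up 42.0 ± 0.655% in lentivirus-treated cells and 65.1 ± 2.33% in control cells (SD, n = 3 each). BMP2 thus stood beside BMP7 in lentivirus-treated cells, at a BMP2 to BMP7 ratio of 1.02 ± 0.021, while the ratio was 0.218 ± 0.038 in control cells. The sum of the 3 ligands was 52.8 ± 1.90 FPKM in lentivirus-treated cells and 42.3 ± 1.61 FPKM in control cells, and the groups did not overlap. These shares restate the levels above and were not tested.

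**Figure D1:**
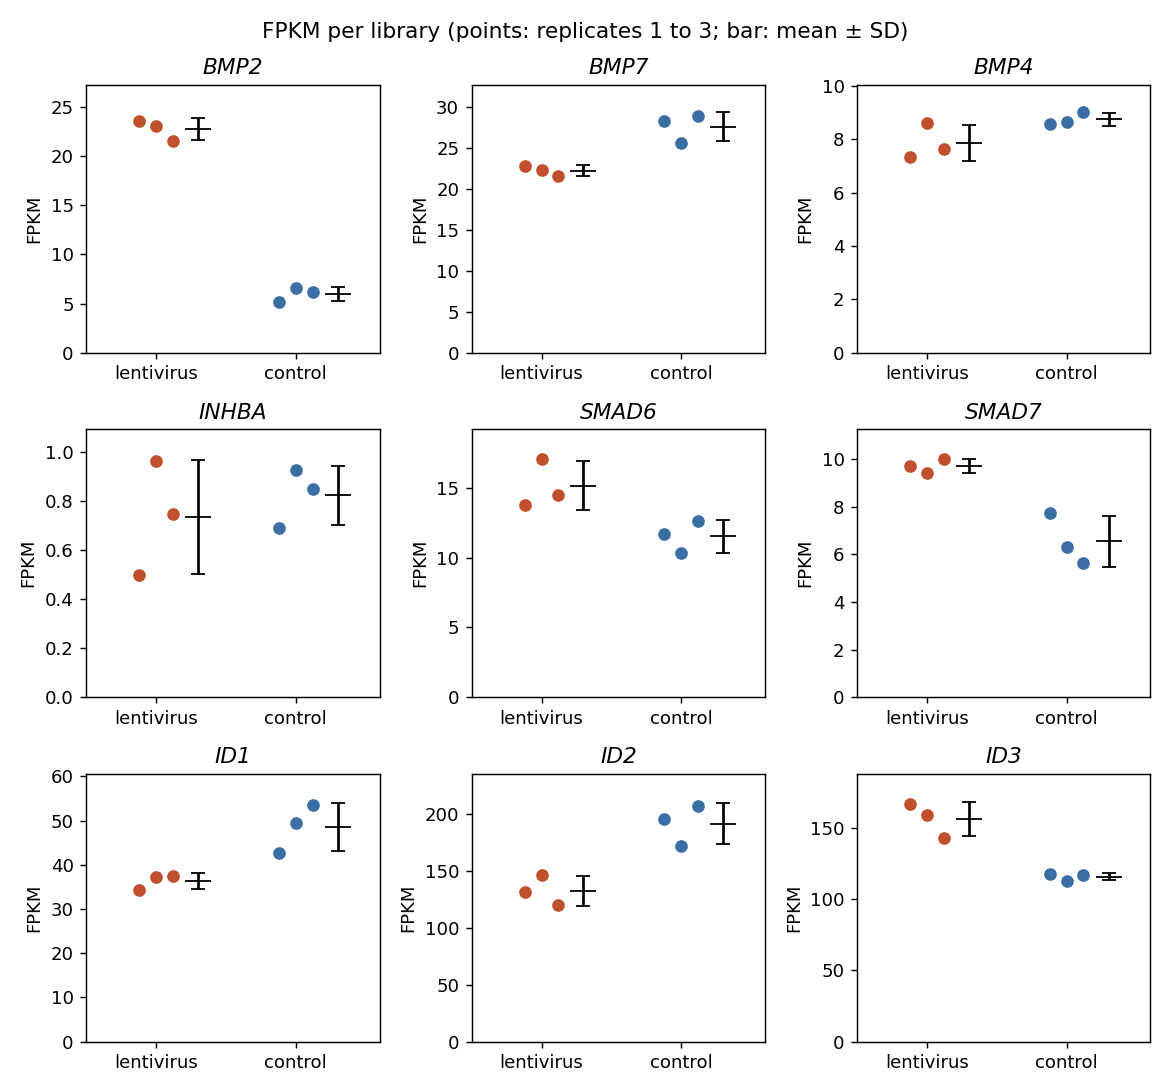
FPKM (linear axis from 0) of each of the 9 genes in 3 lentivirus-treated (left, red) and 3 control libraries (right, blue), with the mean ± SD as a black bar. BMP2 stands at 21.5 to 23.6 FPKM in lentivirus-treated libraries and at 5.16 to 6.60 FPKM in control libraries, and the groups overlap only for BMP4 and INHBA.

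The inhibitory SMADs were both higher in lentivirus-treated cells without passing the test. SMAD6 (ENSP00000288840_1), which acts mainly on BMP receptors and SMAD1 and SMAD5, lay on chromosome 26 from 16760579 to 16840240. It stood at 13.8, 17.1 and 14.5 FPKM in lentivirus-treated libraries, against 11.7, 10.3 and 12.6 FPKM in control libraries. The groups did not overlap, but the gap between the nearest libraries was smaller than the range within either group. The log2 difference was 0.37 (SE 0.11, 95% interval 0.09 to 0.64), with a limma adjusted p of 0.116.

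SMAD7 (ENSP00000262158_1), which acts on both BMP and TGF-beta receptors, lay on chromosome 18 from 31993824 to 32022569. It stood at 9.70, 9.40 and 10.0 FPKM in lentivirus-treated libraries, against 7.74, 6.29 and 5.62 FPKM in control libraries. The lentivirus-treated libraries were close together and all above the more widely spread control libraries. The means were 9.70 ± 0.297 FPKM in lentivirus-treated cells and 6.55 ± 1.08 FPKM in control cells (SD, n = 3 each), a ratio of 1.48. The log2 difference was 0.51 (SE 0.11, 95% interval 0.23 to 0.80), with a limma adjusted p of 0.0616. The ratio of SMAD6 to SMAD7 within a library was 1.57 ± 0.221 in lentivirus-treated cells and 1.79 ± 0.387 in control cells, and its ranges overlapped.

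The 3 ID genes did not move together: ID3 rose, ID2 fell, and ID1 was lower without passing the test. ID proteins are helix-loop-helix factors without a DNA-binding region that hold back differentiation by pairing with basic helix-loop-helix factors. ID1 (ENSP00000365280_1), on chromosome 2 from 36008761 to 36009466, stood at 34.3, 37.2 and 37.5 FPKM in lentivirus-treated libraries, against 42.7, 49.5 and 53.5 FPKM in control libraries. All lentivirus-treated libraries were below all control libraries, which spread over a wider range. The log2 difference was -0.40 (SE 0.094, 95% interval -0.64 to -0.17), with a limma adjusted p of 0.0679.

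ID2 (ENSP00000234091_1), on chromosome 14 from 98963561 to 98964279, stood at 131, 146 and 120 FPKM in lentivirus-treated libraries, against 195, 172 and 207 FPKM in control libraries. The groups did not overlap, and the means were 132 ± 13.3 FPKM in lentivirus-treated cells and 191 ± 17.8 FPKM in control cells (SD, n = 3 each). The log2 difference was -0.53 (SE 0.10), and ID2 was called lower with a limma adjusted p of 0.0465. The call stood in 7 of 15 other ways of processing and was lost with no filter, with the replicate block and whenever 1 library was left out (limma adjusted p = 0.0723 to 0.135 in those 6 fits). ID2 was the only 1 of the 9 genes to overlap other features: 4 features of monkey transcript accessions share its locus. Of these, JK095847.1 (98962550 to 98964379) spans the whole ID2 feature and stood at 80.4, 84.0 and 86.9 FPKM in lentivirus-treated libraries, against 120, 118 and 113 FPKM in control libraries. JK089558.1 (98962002 to 98962590), beside the ID2 feature, stood at 96.2 ± 4.31 FPKM in lentivirus-treated cells and 133 ± 3.76 FPKM in control cells (SD, n = 3 each). Both were called lower, with log2 differences of -0.48 and -0.46 and limma adjusted p-values of 0.0142 and 0.0147. JK088806.1 (98962622 to 98964379) also spans the whole ID2 feature but was not called (log2 difference -0.32, SE 0.32, limma adjusted p = 0.60). It stood at 42.1, 35.7 and 22.1 FPKM in lentivirus-treated libraries, against 38.2, 30.6 and 56.1 FPKM in control libraries, and the groups overlapped. The remaining feature, JK125524.1, was under 0.01 FPKM in every library and was not tested. How reads were divided among these features is not given in the sources used here. The FPKM of the features of the locus summed to 346 ± 20.1 in lentivirus-treated cells and 483 ± 25.7 in control cells.

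ID3 (ENSP00000363689_1), on chromosome 20 from 109120765 to 109121231, was the one ID gene higher in lentivirus-treated cells. It stood at 167, 159 and 143 FPKM in lentivirus-treated libraries, against 118, 113 and 117 FPKM in control libraries. The control libraries were nearly equal and all lay below the lentivirus-treated ones. The means were 156 ± 12.0 FPKM in lentivirus-treated cells and 116 ± 2.43 FPKM in control cells (SD, n = 3 each). The log2 difference was 0.42 (SE 0.065), and ID3 was called higher with a limma adjusted p of 0.0287. Its call too stood in 7 of 15 other ways of processing and was lost with no filter, with the replicate block and whenever 1 library was left out (limma adjusted p = 0.0598 to 0.107 in those 6 fits).

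The balance between ID3 and ID2 differed between the groups, but its level depends on which features are counted for ID2. Taken as the ID2 protein feature alone, ID3 stood above ID2 in every lentivirus-treated library and below it in every control library. The ratio of ID3 to ID2 was 1.28, 1.08 and 1.19 in lentivirus-treated libraries, against 0.603, 0.659 and 0.566 in control libraries. ID3 made up 48.1 ± 2.00% of the summed FPKM of the 3 ID genes in lentivirus-treated cells and 32.6 ± 1.47% in control cells (SD, n = 3 each). The sum itself was 325 ± 21.7 FPKM in lentivirus-treated cells and 356 ± 21.3 FPKM in control cells, and its ranges overlapped. In another count, added after the values were seen, ID2 was taken as the sum of the 5 features of its locus. In that sum JK089558.1 and JK125524.1 do not overlap the ID2 feature itself, so it is no level of ID2 alone. ID3 stood below the sum in all 6 libraries. The ratio of ID3 to the sum was 0.452 ± 0.028 in lentivirus-treated cells and 0.240 ± 0.0093 in control cells. The ID3 share was then 29.0 ± 1.34% in lentivirus-treated cells and 17.9 ± 0.615% in control cells. The sum of the ID genes was then 538 ± 28.4 FPKM in lentivirus-treated cells and 648 ± 29.7 FPKM in control cells, without overlap.

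**Figure D2:**
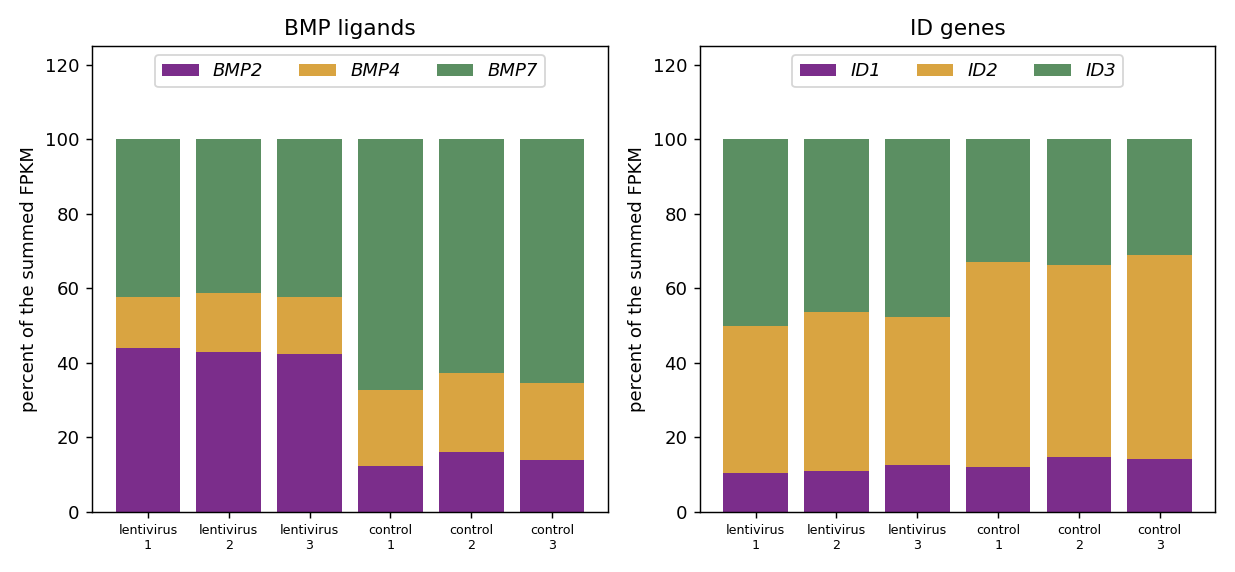
Share (percent) of the summed FPKM of BMP2, BMP4 and BMP7 (left) and of ID1, ID2 and ID3 (right) in each library, 3 lentivirus-treated on the left and 3 control on the right of each panel, with ID2 as its protein feature alone. BMP2 takes 42.5% to 44.0% in lentivirus-treated libraries and 12.3% to 16.2% in control libraries, and ID3 takes 46.3% to 50.3% in lentivirus-treated libraries and 31.0% to 33.8% in control libraries.

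Beside BMP2, which was chosen by its values and is not counted, 2 of the 7 other tested genes were called, ID3 as higher and ID2 as lower, where 6.48% of all tested features were called (2.89% higher and 3.59% lower). The groups did not overlap in 6 of the 8 genes other than BMP2, 3 higher and 3 lower in lentivirus-treated cells, where they did not overlap in 31.6% of all tested features (15.1% higher and 16.5% lower). The genes were listed with this comparison known, so nothing is read from these counts. The median log2 difference of the 8 tested genes was 0.11 and that of all tested features was -0.00097. The median absolute difference was 0.41 in the 8 genes and 0.16 in all tested features. The 8 genes include BMP2, chosen by its values, and all were listed with this comparison known, so nothing is read from these medians either. Without BMP2, the genes lay between -0.53 and 0.51 on the log2 scale, within the range from the 5th percentile (-0.57) to the 95th percentile (0.54) of all tested features.

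**Figure D3:**
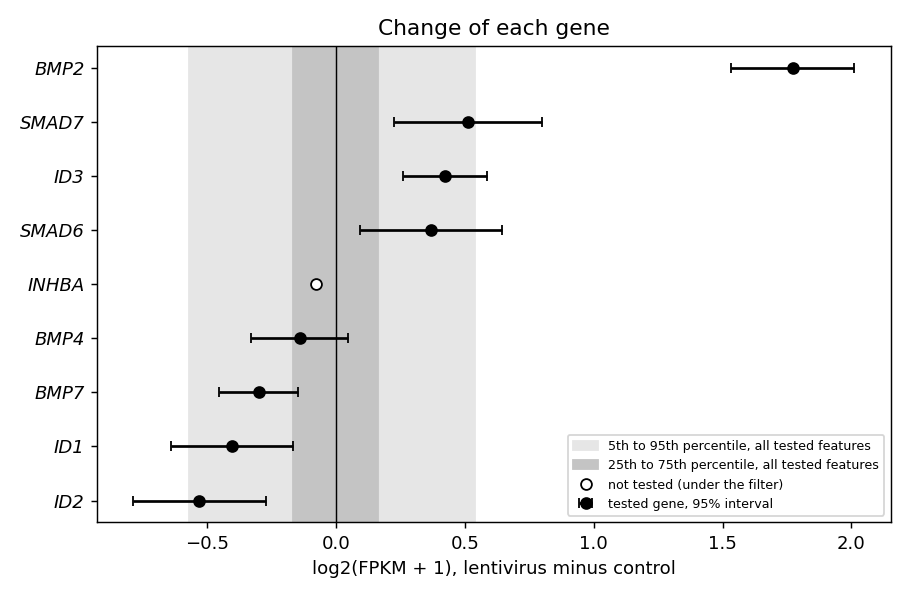
Difference in log2(FPKM + 1), lentivirus minus control, for the 9 genes, with 95% limma intervals for the 8 tested ones; shaded bands mark the middle of all 28434 tested features. BMP2 lies at 1.77, and the other genes lie inside the wider band.

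Overlapping features were also summed to loci before the test, which changes no value of the 8 genes that lie alone. This leaves fewer rows, and limma estimates the spread anew. The SE was lower for every tested gene, that of SMAD7 being 0.107 in place of 0.114. In this fit 5 of the 7 tested genes other than BMP2 were called, where 19.5% of all 16072 tested loci were called (8.88% higher and 10.6% lower). SMAD7 and ID3 were called higher and BMP7, ID1 and ID2 lower, while SMAD6 (limma adjusted p = 0.0538) and BMP4 were not called. With any 1 library left out of the test over features, 0 of these 7 genes were called, where between 0.169% and 0.415% of all tested features were called. An exact permutation test of a single gene with 3 against 3 libraries cannot go below p = 0.10.

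In the order of the levels, BMP2 took place 4 in lentivirus-treated cells and place 8 in control cells. In lentivirus-treated cells the order from the highest mean was ID3, ID2, ID1, BMP2, BMP7, SMAD6, SMAD7, BMP4 and INHBA. In control cells it was ID2, ID3, ID1, BMP7, SMAD6, BMP4, SMAD7, BMP2 and INHBA. ID2 is ranked by its protein feature. The summed FPKM of all features of its locus stood above ID3 in both groups. In lentivirus-treated libraries the ranges of neighbours in the order overlapped for ID3 and ID2 and for BMP2 and BMP7. In control libraries they overlapped for SMAD7 and BMP2, and no other neighbours overlapped in either group. In control cells ID2 stood above 94.0% of tested features in mean FPKM, ID3 above 90.4% and BMP2 above 32.2%. Features under the filter of 1 FPKM are left out of this ranking. INHBA did not pass that filter, so its place, above 1.07% of tested features, follows from the filter.

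Replicates of these genes were about as variable as those of other features. The within-group SD on log2(FPKM + 1) was 0.069 for BMP7, 0.081 for BMP4, 0.082 for ID3, 0.12 for BMP2 and ID1, 0.14 for ID2 and SMAD6 and 0.15 for SMAD7. The median over the 9949 tested features that overlap no other was 0.10. INHBA, the lowest gene, had the widest spread of the 9 at 0.15.

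Each gene was set beside the loci around it, since the median difference varied between chromosomes. The 10 nearest tested loci on either side of BMP2 lay between -0.52 and 0.27 log2, with a median of -0.060, and 13 of 20 were lower in lentivirus-treated cells. SMAD6 lay on chromosome 26, where 20.4% of the other 421 tested loci were higher in lentivirus-treated cells and the median log2 difference was -0.18. The 20 loci around SMAD6 had a median of -0.034, and the nearest locus before it, at a gap of 60.2 kb, differed by 0.55 log2. ID3 lay on chromosome 20, where 70.3% of the other 1148 loci were higher, and 16 of its 20 neighbours were higher with a median of 0.11, against its own 0.42.

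ID2 lay among neighbours with a median of -0.13 log2, on a chromosome whose other 566 loci had a median of -0.10, and its own locus differed by -0.48. The neighbours of BMP7 and ID1, on the chromosome of BMP2, had medians of -0.072 and -0.0066 log2, and those of SMAD7 had a median of 0.00052. BMP4 differed by -0.14 log2 and its neighbours by a median of -0.030, on a chromosome where 69.6% of the other loci were higher. The part of the chromosome shifts in the differences of ID2, ID3 and SMAD6 was not tested.

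**Figure D4:**
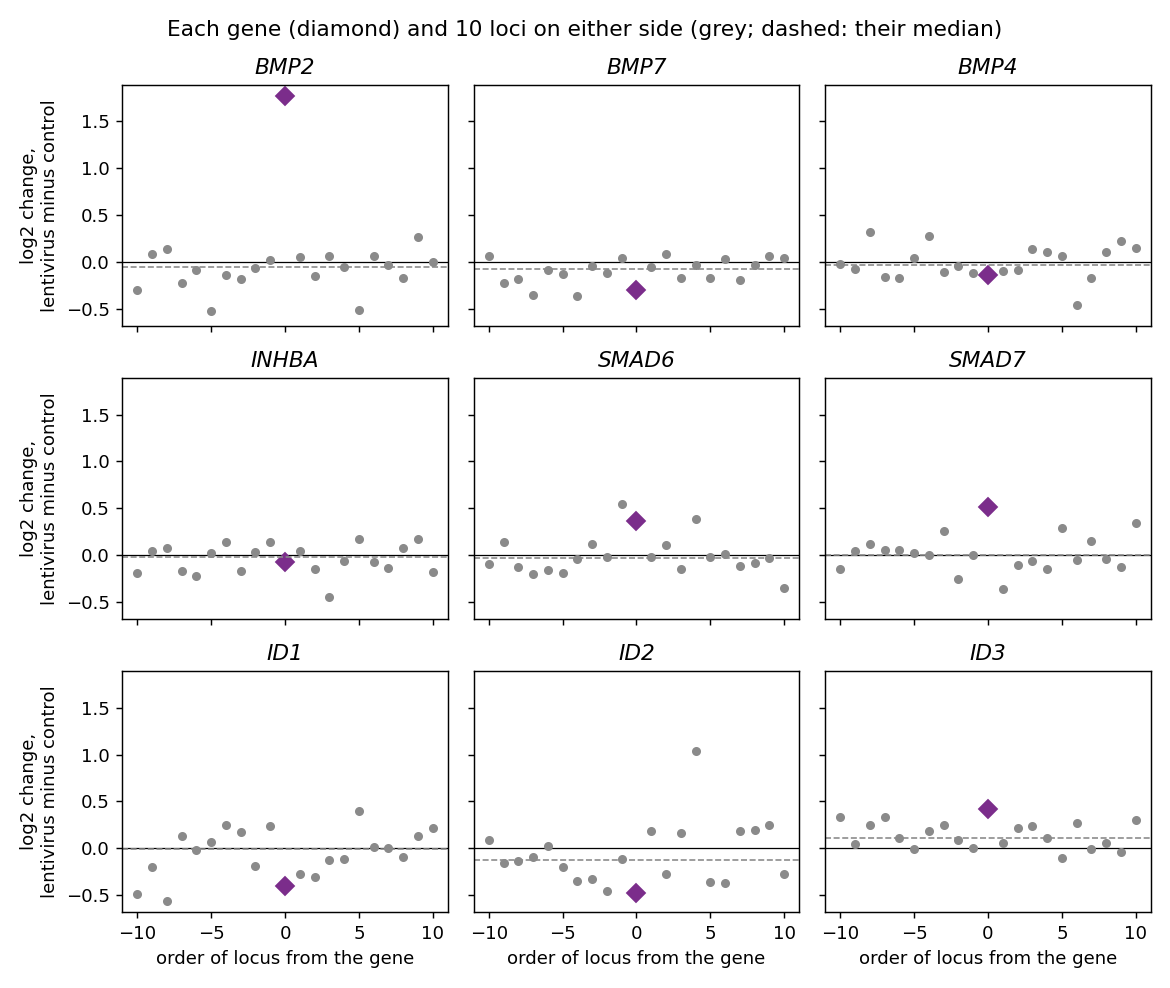
Difference in log2(FPKM + 1), lentivirus minus control, of each gene's locus (purple diamond) and of the 10 tested loci on either side in order along the chromosome (grey points; the dashed line is their median). The BMP2 locus stands at 1.77 while its neighbours lie between -0.52 and 0.27, and ID3 stands at 0.42 among neighbours with a median of 0.11.

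The features whose profile over the 6 libraries was most like that of BMP2 were sought among 6495 others that overlap no other feature and average at least 5 FPKM, by the root mean square difference of log2(FPKM + 1) after subtracting each feature's mean. The nearest was JK112617.1 (chromosome X, 8599092 to 8599259), at 0.24 log2. It stood at 11.6, 8.18 and 7.27 FPKM in lentivirus-treated libraries, against 2.11, 2.44 and 3.16 FPKM in control libraries. Its control values are all under 5 FPKM, so it passed that limit only through the lentivirus-treated libraries. A feature equally low in control cells that did not rise would have been left out. The next was ENSP00000423014 (chromosome 27, 1363807 to 1378129), at 0.26 log2, which stood at 27.6, 30.5 and 26.9 FPKM in lentivirus-treated libraries, against 11.2, 10.8 and 10.4 FPKM in control libraries. Their log2 differences between the groups were 1.48 and 1.31, against 1.77 for BMP2. The deposited table gives neither feature a gene name.

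Directions did not depend on the scaling between libraries. Under TPM, median ratio and quantile scaling the log2 difference of BMP2 ran from 1.64 to 1.78, that of SMAD7 from 0.47 to 0.52, that of ID3 from 0.43 to 0.44 and that of ID2 from -0.52 to -0.50. None of the 8 tested genes changed direction in any of 15 other ways of processing, but most of these could not have changed it. The filters and the replicate block leave the difference as it was, and sums over loci alter only that of ID2. Another pseudocount or leaving out 1 library cannot reverse a gene whose groups do not overlap, which holds for all tested genes but BMP4.

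**Figure D5:**
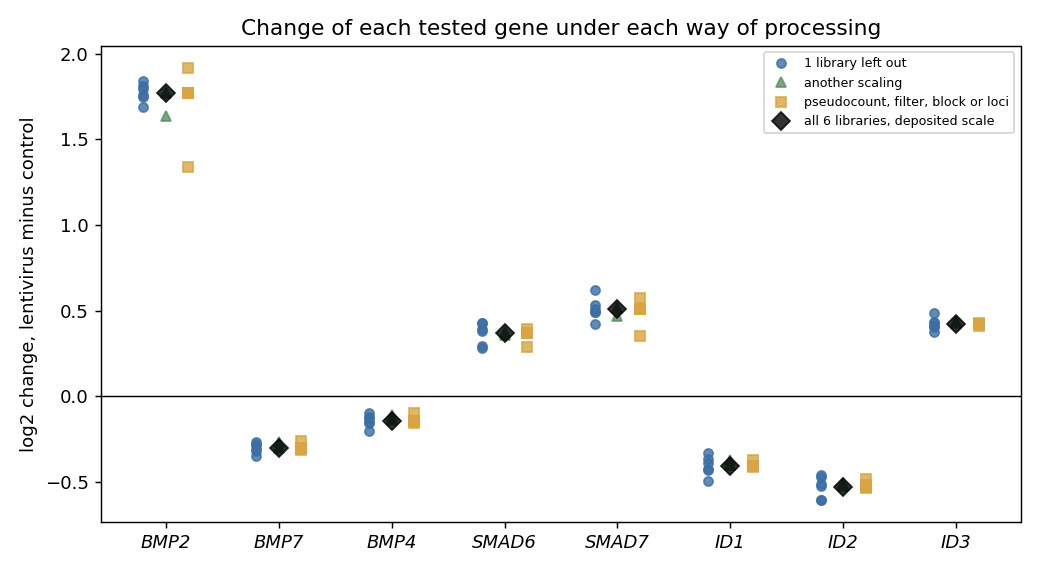
Difference in log2(FPKM + 1), lentivirus minus control, of the 8 tested genes with all 6 libraries on the deposited scale (black diamonds), without 1 library (blue), under another scaling (green) and under another pseudocount, filter, replicate block or with features summed to loci (yellow). Every point lies on the same side of 0 as the black diamond of its gene. Points for the filters and the replicate block repeat the value of the diamond by construction.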

How the data were processed

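Messenger RNA of 3 lentivirus-treated and 3 control COS-1 samples was sequenced, and the authors deposited 1 table of FPKM values with 1 column per library. The submitters' processing notes name Bowtie2 2.1.0.0, TopHat2 2.0.10, CASAVA, Cuffdiff and Cufflinks 2.1.1, without their roles; the build and any scaling between libraries are not given in the sources used. FPKM estimates keep no counts, so depth is unknown. The table pairs no accession with a symbol, and 0 IDs matched the RefSeq table; the 89 other symbols in the 10 pathway and cell type lists were therefore not analysed here. Symbols of the 9 genes come from a list of human protein accessions.

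Features averaging at least 1 FPKM were tested by limma 3.58.1 in R 4.3.3, using lmFit and a trended eBayes on log2(FPKM + 1), with the group as the only term and two-sided p-values. The steps were tested on simulated data. The 9 genes and all lists were chosen with earlier results of these data known. Every one of the 9 genes is named; the 2 features most like BMP2 were taken by smallest distance. The alternatives tried were other pseudocounts, filters and scalings, a replicate block, sums over loci, and leaving out each library.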

Additional observations from a re-analysis of the deposited data

How the results depend on the processing

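With no filter on low values, limma called 1197 features (2.32% of those tested) in place of 1842 (6.48%). It called 1 of the 9 genes, in place of 3 of the 8 tested with the filter. Counts of genes here include BMP2, which was chosen by its values, unless stated. With overlapping features summed to loci it called 3134 loci (19.5% of those tested) and 6 of the 8 tested genes. Without 1 library, it called 48 features (without lentivirus replicate 1) to 118 (without control replicate 2), or 0.169% to 0.415% of those tested. Of the 7 tested genes other than BMP2, it called 0 in each of the 6 fits. ID2 had a limma adjusted p of 0.0723 to 0.135 and ID3 one of 0.0598 to 0.107 in those fits. At pseudocounts of 0.1 and 5 and under the filter of 5 FPKM and the other scalings, the called genes numbered 3 or 4, the added one being BMP7. In those fits between 6.45% and 10.1% of all tested features were called. BMP2 differed by 1.92 and 1.34 log2 at pseudocounts of 0.1 and 5.

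The replicate number as a block gave 0 called features by limma and 0 of the genes. There were 6084 features at an unadjusted p under 0.05, against 6890 without the block. Deviations from the group means correlated at 0.131, -0.028 and 0.0028 between libraries of the same number. Between libraries of different numbers the correlations ran from -0.135 to 0.128. Of 3 lentivirus libraries, 1 correlated best with its own number. With 3 libraries in each group, these correlations cannot decide whether the numbers pair the libraries. The block has fewer residual degrees of freedom. Over all alternatives the log2 difference ran from 0.28 to 0.43 for SMAD6 and from -0.49 to -0.33 for ID1. Without read counts, counting error could not be separated from other spread.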
